A study of Mus musculus with 8 samples.

Results

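The Notch pathway was followed through 10 genes: the receptors Notch1, Notch2 and Notch3, the ligands Jag1, Jag2, Dll1 and Dll4, the transcription factor Rbpj, and the target genes Hes1 and Hey1. They were picked by gene name for their place in the pathway, not by their values, out of 49826 genes on one array design and 34761 genes on the other. Total RNA of 4 cell populations had been hybridised to 1-colour Agilent arrays, on which each 60-base probe gives a fluorescence signal, to see how closely bone marrow cells recovered from a damaged liver came to resemble hepatocytes. Each population had 2 arrays, and the legend of the study gives cells pooled from 3 mice for each.

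Lin- BM cells (arrays L3 and L4) were bone marrow cells from which cells carrying blood lineage markers had been removed on magnetic beads. Their donors were female eGFP mice, C57Bl6/J-Tg(UBCGFP) 30Scha/J, between 6 and 8 weeks of age, in which the ubiquitin C promoter drives eGFP in most cells. BM-derived hepatocytes were eGFP+ cells sorted 1 month (B1 and B2) or 5 months (G1 and G3) after Tx from the hepatocyte fraction of the recipients' livers. The recipients were male hemophilia A mice of the same age range, which carry the F8tm1Kaz allele on a mixed background with B6, given acetaminophen to injure the liver and then Lin- BM cells of the eGFP donors through the tail vein. Primary hepatocytes (H2 and H4) were the positive control, and the strain, sex and age of their mice are not given in the sources used here. As eGFP marks the donor and not the cell type, every donor cell left in the hepatocyte fraction was in the sort. The study stained sorted cells for albumin to check that they were hepatocytes. It also reports that a small share had fused with recipient cells, fewer at 5 months than at 1 month. The labels do not say which mice stand behind which array, so each p-value measures the spread between these samples only.

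Notch receptors are single-pass membrane proteins that are cut after they bind a Delta-like or Jagged ligand on a neighbouring cell. The freed intracellular domain enters the nucleus and joins RBPJ and a Mastermind coactivator at target promoters, where genes of the Hes and Hey families of repressors are switched on. In blood formation the pathway is best known for setting the T cell fate, and in liver for the fate of bile duct cells and for the vessels, where Jag1 loss gives the bile duct paucity of Alagille syndrome.

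Lin- BM cells and 1-month cells lay on slide 1, and primary hepatocytes and 5-month cells on slide 2, which had another array design and was scanned on another day. Across slides only probes of identical sequence were compared, of which there were 13991, and a difference of slide cannot be told apart from a difference of group there. The members had 13 probes on slide 1 and 14 on slide 2, and 7 of the 10 genes shared a probe between slides; Notch1, Hes1 and Rbpj did not. Signals are given as log2 values after each array's 75th percentile was subtracted, so that 0 is the upper quartile of the array. The scanner software set 47.7% to 58.6% of spots well above background. B1 and B2 were dimmer than the other arrays, with a raw upper quartile of 75.5 and 89.5 where the rest had 122.2 to 193.4. In each of the 4 populations, 7 of the 10 genes had a probe well above background on both arrays.

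The label of each population was checked on marker genes. The 9 hepatocyte markers with a probe on slide 1, among them Alb and Ttr, were all well above background at 1 month, where their summed linear signal was 2670 to 2830 times the array's upper quartile against 0.474 to 0.534 times in Lin- BM cells. All 10 leukocyte and progenitor markers, among them Ptprc, Kit and Cd34, were well above background in Lin- BM cells, with a summed signal of 748 to 798 against 4.07 to 6.96 at 1 month. On slide 2 all 10 hepatocyte markers were well above background in both populations, with a summed signal of 7870 to 8990 in primary hepatocytes and 8770 to 9810 at 5 months, and the leukocyte and progenitor markers summed to 3.79 to 4.97 and 4.17 to 8.93. The 5-month arrays differed in some of these: Mpo and Myb read 2.24 and -2.36 on G1, both well above background, and -5.22 and -5.76 on G3, where they were not. Flt3 read -2.40 on G1, well above background, and -3.71 on G3, where it was not. Spi1 went the other way, with -6.27 on G1, not well above background, and -2.81 on G3, where it was. Their part in the results was not tested. The bile duct keratins Krt19 and Krt7 were not well above background on any of the 8 arrays. In such bulk samples fewer cells of a type and less RNA per cell cannot be told apart.

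A few probes are shown here to let their sequence be read beside their signal: a bright Notch1 probe and the Hes1 probe, on which the levels given below rest, and a pair of dim Notch2 probes, on which no Notch2 test rests. The Notch1 probe of slide 2, at chr2:26319440-26319499 of the minus strand in mm9, has a run of GAA repeats, given in capitals:
Notch1, slide 2: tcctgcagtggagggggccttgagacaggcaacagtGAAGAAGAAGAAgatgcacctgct
A run of 15 of its bases is also found in 9 of the 55681 probes of that design, all of other genes. The dim probes of Notch2 on slide 1 and slide 2 (the latter at chr3:97951233-97951292, plus strand, mm9) overlap but are not identical, and the 32 bases they share are in capitals:
Notch2, slide 1: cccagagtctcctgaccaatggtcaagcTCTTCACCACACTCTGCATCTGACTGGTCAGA
Notch2, slide 2: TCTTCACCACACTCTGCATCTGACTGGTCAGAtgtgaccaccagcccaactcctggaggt
The Hes1 probe of slide 1 is its one probe there, and shares no run of 15 bases with another probe of the design:
Hes1, slide 1: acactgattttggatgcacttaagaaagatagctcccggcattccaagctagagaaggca

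Within slide 1, 7 of the 9 members tested were called between 1-month cells and Lin- BM cells, the call being an adjusted p below 0.05 together with a log2 change larger than 0.6. The ligands Jag1 and Dll1 were higher at 1 month, and Notch1, Notch3, Jag2, Rbpj and Hey1 were lower. The test was limma's moderated test over 28535 genes with Benjamini-Hochberg adjustment, and 55.3% of all genes tested were called in this comparison, 28.8% higher and 26.5% lower, so a called gene was the rule. The median log2 change of the members tested was -1.55, against 0.07 over all genes tested. Without array B2, 4 of the 9 were called. Within slide 2, 0 of 7 members tested were called between 5-month cells and primary hepatocytes, where 0.552% of 19933 genes were, 0.366% higher and 0.186% lower. At an unadjusted p below 0.05, 2 of the 7 passed in limma, Jag1 and Dll1, both higher at 5 months, as did 2817 of all genes. The methods' t-test passed the same 2 unadjusted and 0 after Benjamini-Hochberg adjustment. The median log2 change of these 7 members was 0.03, against 0.04 over all genes tested.

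**Figure D1:**
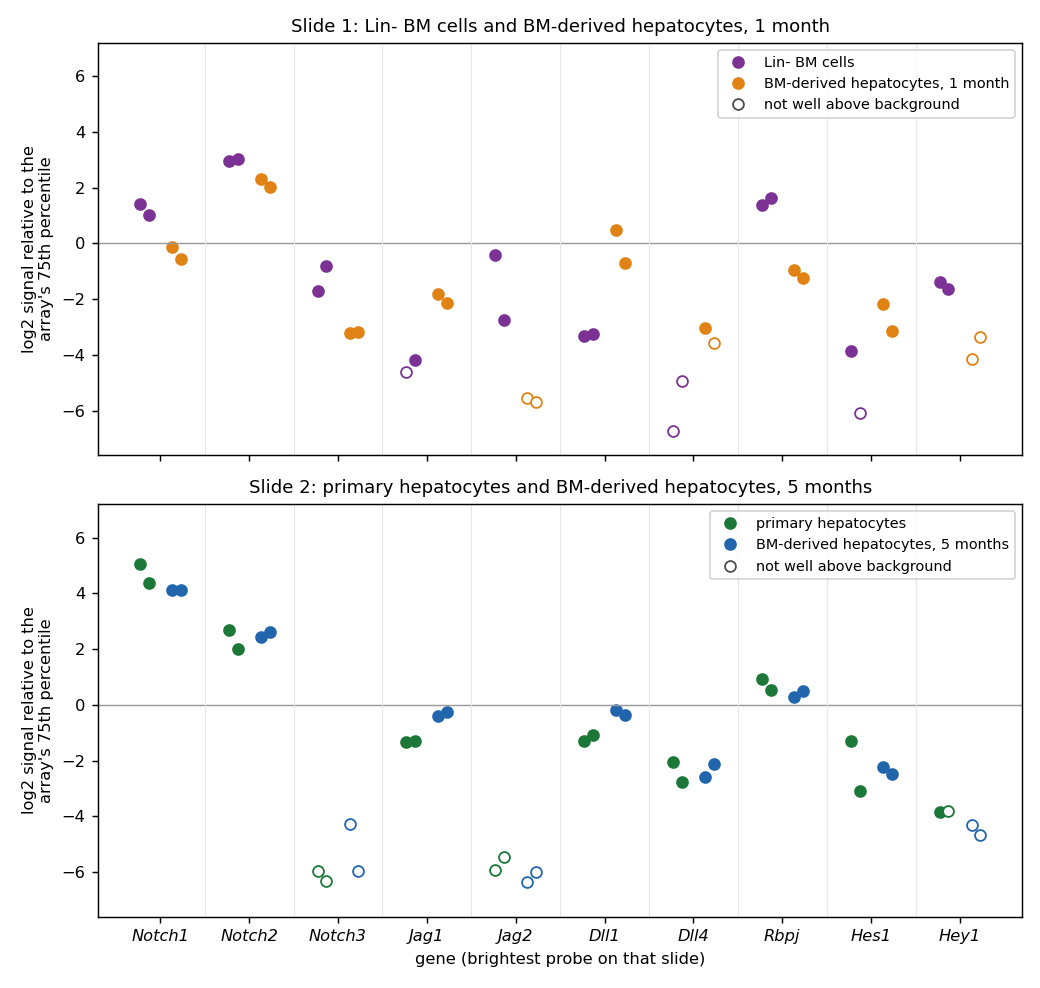
Log2 signal of the 10 genes relative to the 75th percentile of each array, for the brightest probe of each gene on each slide, with 1 point for each array and open points where the spot was not well above background. On slide 1 the Jag1 and Dll1 points of 1-month cells lie above those of Lin- BM cells and the Notch1, Notch3, Jag2, Rbpj and Hey1 points lie below, while on slide 2 the points of both populations overlap or lie within about 1 unit of each other for most genes.

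Among the receptors, Notch1 is the one that commits progenitors to the T cell lineage (chr2:26457902-26503822, GRCm38). In Lin- BM cells it read 1.41 and 1.03, and at 1 month it read -0.12 and -0.55. All 4 arrays were well above background and the groups did not overlap. The log2 change was -1.55 ± 0.31 (SE, n = 2 and 2), a 2.94-fold lower signal, with an adjusted p of 0.0127 in limma. Without array B2 it was -1.34 with an adjusted p of 0.0676.

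On slide 2 the probes of Notch1 fell on either side of the detection limit. The probe with the GAA run read 5.06 and 4.39 in primary hepatocytes and 4.14 and 4.14 at 5 months, well above background on all 4 arrays. The other probe, at chr2:26314630-26314689 in mm9, read between -4.93 and -4.15 and was not well above background on any array. Whether the bright signal comes from Notch1 RNA was not tested. On the bright probe the 5-month cells were lower by a log2 change of -0.59 ± 0.30 (SE), which was not called (95% interval -1.39 to 0.21, adjusted p = 0.466 in limma). As neither probe is on slide 1, the Notch1 signal was not compared between slides.

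Notch2, the receptor known for bile duct formation in liver and marginal zone B cells in spleen (chr3:98013538-98150367, GRCm38), was well above background throughout. Its bright probe, which both slides share, read 2.94 and 3.03 in Lin- BM cells, 2.32 and 2.04 at 1 month, 2.68 and 2.0 in primary hepatocytes and 2.45 and 2.63 at 5 months, each on the scale of its own slide. The 1-month cells were below the Lin- BM cells on both arrays, by a log2 change of -0.81 ± 0.27 (SE), which missed the threshold (95% interval -1.50 to -0.11, adjusted p = 0.0542 in limma). It passed with an adjusted p of 0.0433 when all 4 populations were fitted on the shared probes, and of 0.00468 with normexp background correction (log2 change -1.06).

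On the shared-probe scale Notch2 was 1.85-fold lower in primary hepatocytes than in Lin- BM cells, with a log2 change of -0.89 ± 0.27 (SE) and an adjusted p of 0.0254 in limma. That call was lost without L3 (-0.86, adjusted p = 0.0761), without L4 (-0.92, 0.0628) and without H4 (-0.57, 0.119). Between 5-month cells and Lin- BM cells the log2 change was -0.65 (adjusted p = 0.0738). The 3 hepatocyte populations differed from each other by at most 0.24 on the log2 scale in Notch2, with 95% intervals reaching from -0.55 to 0.90. The dim probe of slide 2 read -4.09 and -3.57 in primary hepatocytes and -3.82 and -3.27 at 5 months, and its overlapping partner on slide 1 was well above background on 1 of 4 arrays. The remaining probe of slide 1 read -1.83 and -1.48 in Lin- BM cells and -2.25 and -2.46 at 1 month, in the same direction as the bright one.

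Notch3, best known as the receptor of vascular smooth muscle and pericytes and also active in T cell precursors (chr17:32120820-32166896, GRCm38), read -1.72 and -0.81 in Lin- BM cells and -3.20 and -3.17 at 1 month. Both groups were well above background on both arrays and did not overlap, and the 1-month signal was 3.78-fold lower (log2 change -1.92 ± 0.39, SE, adjusted p = 0.0128 in limma). This call was lost without B1 (-1.90, adjusted p = 0.0601) and without B2 (-1.93, 0.0611). With normexp background correction the log2 change was -0.24 and the adjusted p was 0.41.

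On slide 2 Notch3 was not well above background on any array, with -5.94 and -6.30 in primary hepatocytes and -4.27 and -5.95 at 5 months. It was therefore not tested there. Where a population had no array well above background, only a bound on the fold can be given: the mean of the brighter population is set against a mean that takes, for each array, the higher of the probe's own signal and the lowest signal of any probe well above background. On the shared-probe scale primary hepatocytes were at least 8.83-fold lower than Lin- BM cells (adjusted p = 2.87e-04 in limma) and 5-month cells at least 7.28-fold lower (8.47e-04). Notch3 thus fell in each of the 3 hepatocyte populations. The 1-month cells were at least 2.38-fold higher than primary hepatocytes, where it was the 1 member of 7 called and 16.7% of all 9212 genes were, 11.6% higher and 5.1% lower (adjusted p = 0.0143 in limma). That call was lost without any one of the arrays H2, H4, B1 and B2, with adjusted p between 0.0504 and 0.0725. Markers of stellate and mural cells, which carry Notch3, had 8 of 10 genes well above background on both arrays at 1 month. They had 7 of 10 in Lin- BM cells and in primary hepatocytes, and 9 of 10 at 5 months. Des, Lrat and Rgs5 were well above background on neither array in Lin- BM cells. The same held for Des and Col1a1 at 1 month and for Reln and Col1a1 in primary hepatocytes. The summed signal of the stellate and mural markers was 33.5 to 39.5 at 1 month and 39.7 to 180 in Lin- BM cells. It was 11.7 to 50.4 in primary hepatocytes and 41.4 to 48.5 at 5 months, in multiples of the array's upper quartile. These markers stand for the stellate and mural cells. Their part in the Notch3 signal was not tested.

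Among the ligands, Jag1 rose in all 3 hepatocyte populations (chr2:137081451-137116520, GRCm38). It is the ligand that biliary, portal and endothelial cells of the liver are known to show. The shared probe read -4.61 and -4.19 in Lin- BM cells, of which the second was well above background, and -1.81 and -2.13 at 1 month. The groups did not overlap, and the log2 change was 2.43 ± 0.30 (SE), or 5.38-fold, with an adjusted p of 0.00328 in limma. The other Jag1 probe of slide 1 was not well above background on any array.

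On slide 2 Jag1 read -1.32 and -1.28 in primary hepatocytes and -0.40 and -0.26 at 5 months. The arrays of the 2 populations did not overlap, and the 5-month signal was 1.96-fold higher (log2 change 0.97 ± 0.20, SE, 95% interval 0.43 to 1.51), with an unadjusted p of 0.00674 and an adjusted p of 0.175 in limma. It was therefore not called.

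Side by side on the shared-probe scale, the Jag1 level was -5.98 and -5.71 in Lin- BM cells, -3.26 and -3.52 at 1 month, -3.02 and -2.95 in primary hepatocytes and -2.02 and -1.93 at 5 months. The order of the populations was thus Lin- BM cells, 1 month, primary hepatocytes and 5 months. Primary hepatocytes were 7.26-fold above Lin- BM cells (adjusted p = 6.09e-05 in limma) and 5-month cells 14.6-fold (1.76e-05). The 1-month cells and the primary hepatocytes, neighbours in this order, differed by a log2 change of -0.40 (95% interval -0.94 to 0.13, adjusted p = 0.258). From 1 to 5 months Jag1 rose by a log2 change of 1.42 ± 0.22 (SE, adjusted p = 0.0108), 1 of 2 members called of 7 tested where 17.1% of all genes were called, 5.82% higher and 11.2% lower. That call was lost without B2 (1.28, adjusted p = 0.0689), without G1 (1.46, 0.0731) and without G3 (1.37, 0.073), and with normexp background correction (0.37, 0.0699).

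Jag2, a ligand of thymic and marrow stroma and of epithelia, moved the opposite way (chr12:112907803-112929812, GRCm38). In Lin- BM cells it read -0.42 and -2.74, and both arrays were well above background although they lay more than 2 units apart. At 1 month it read -5.54 and -5.68, in primary hepatocytes -5.91 and -5.46 and at 5 months -6.35 and -6.01, and none of these 6 arrays was well above background. The 1-month signal was at least 3.36-fold lower than that of Lin- BM cells (adjusted p = 0.0116 in limma, log2 change -4.03 ± 0.78, SE). This call was lost without B1 (-4.10, adjusted p = 0.0522), without B2 (-3.96, 0.0589) and with normexp background correction (-0.45, 0.385). On the shared-probe scale primary hepatocytes were at least 7.1-fold lower (adjusted p = 0.00186) and 5-month cells at least 5.86-fold lower (0.00122).

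Dll1, the ligand known for marginal zone B cells and somite formation (chr17:15367354-15376932, GRCm38), rose with Jag1. Its shared probe read -3.31 and -3.25 in Lin- BM cells and 0.48 and -0.70 at 1 month, well above background on all 4 arrays. The 1-month signal was 8.99-fold higher, with a log2 change of 3.17 ± 0.45 (SE) and an adjusted p of 0.00491 in limma. The B arrays lay about 1 unit apart, and the log2 change was 2.58 without B1 and 3.76 without B2.

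On slide 2 the shared Dll1 probe read -1.31 and -1.07 in primary hepatocytes and -0.18 and -0.35 at 5 months. The groups did not overlap, and the log2 change of 0.93 ± 0.22 (SE, 95% interval 0.34 to 1.51) had an unadjusted p of 0.011 and an adjusted p of 0.212 in limma. The other Dll1 probe of slide 2, at chr17:15513726-15513785 in mm9, went the other way: it read -2.04 and -2.16 in primary hepatocytes and -2.80 and -2.80 at 5 months, a log2 change of -0.70 with an adjusted p of 0.268. The shared probe lies at chr17:15504623-15504682 in mm9. Which of these probes follows the RNA of the gene was not tested.

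Across slides the Dll1 level on the shared probe was -4.68 and -4.77 in Lin- BM cells, -3.01 and -2.74 in primary hepatocytes, -1.80 and -2.02 at 5 months and -0.97 and -2.09 at 1 month. Dll1 rose in each of the 3 hepatocyte populations against Lin- BM cells. Primary hepatocytes were 3.60-fold higher (adjusted p = 0.00474 in limma) and 5-month cells 7.04-fold higher (7.26e-04). The 1-month cells and the primary hepatocytes differed by 1.35 (adjusted p = 0.0572), which was called without B2 (1.91, adjusted p = 0.0295). The difference between 5 months and 1 month was -0.38 (95% interval -1.29 to 0.53, adjusted p = 0.515), and it was 0.18 without B1.

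Dll4, the ligand of endothelial tip cells and of the thymic stroma (chr2:119325784-119335666, GRCm38), was well above background in primary hepatocytes and 5-month cells. It read -6.72 and -4.92 in Lin- BM cells, both not well above background, and -3.03 and -3.58 at 1 month, of which the first was well above. It was not tested on slide 1 for that reason. Primary hepatocytes read -2.03 and -2.75 and 5-month cells -2.60 and -2.13, all well above background, and their log2 difference was 0.03 (95% interval -0.92 to 0.97, adjusted p = 0.982 in limma). On the shared-probe scale primary hepatocytes were at least 3.45-fold above Lin- BM cells (adjusted p = 0.0024) and 5-month cells at least 3.62-fold (0.00223).

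Endothelial markers were also mostly higher at 1 month than in Lin- BM cells, a direction called for 28.8% of all genes tested. Of 10 markers of sinusoidal and vascular endothelium, 7 were called higher at 1 month than in Lin- BM cells and 1 lower, Pecam1 (-2.52, adjusted p = 0.00401 in limma), with a summed signal of 63 to 72.9 against 4.78 to 7.58 times the upper quartile. It was 54.6 to 59.9 in primary hepatocytes and 59.4 to 72.8 at 5 months. Between these 2 populations 0 of the 10 were called, with a median log2 change of 0.03. Jag1, Dll1 and Dll4 changed there by 0.97, 0.93 and 0.03. From 1 to 5 months 0 of the 6 tested were called higher and 1 lower, with a median of -0.36. Jag1, Dll1 and Dll4 changed there by 1.42, -0.38 and 0.72. Kupffer cell markers had 6 of 10 called higher at 1 month than in Lin- BM cells. Their summed signal was 33.9 to 73 in primary hepatocytes and 130 on both 5-month arrays. Of the 8 cholangiocyte markers, 5 were not well above background on either array at 1 month and at 5 months, and 4 in primary hepatocytes. The part of any of these cells in the signals of Jag1, Dll1 and Dll4 was not tested.

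**Figure D2:**
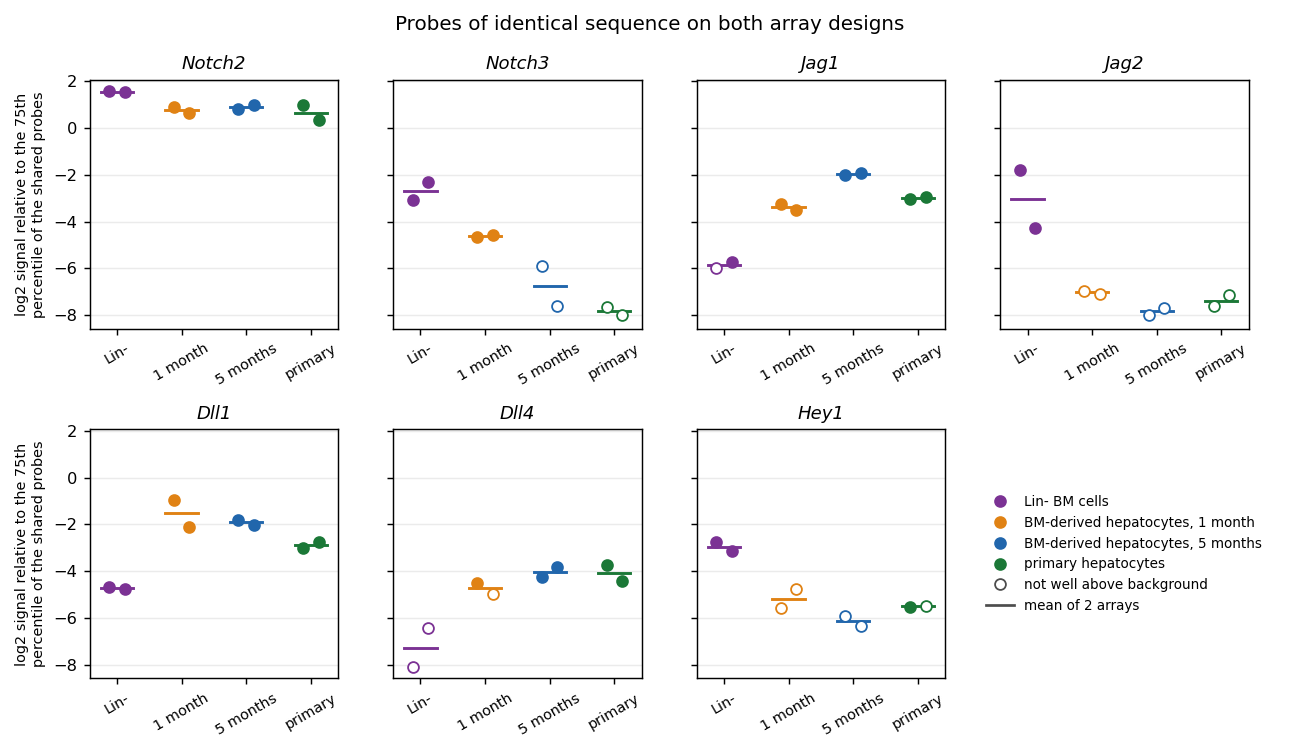
Log2 signal of the 7 genes with a probe of identical sequence on both array designs, relative to the 75th percentile of the shared probes of each array, with 1 point for each array, a bar at the mean of 2 arrays, and open points where the spot was not well above background. Notch3, Jag2 and Hey1 are highest in Lin- BM cells, Jag1, Dll1 and Dll4 are lowest there, and Notch2 lies between 0.33 and 1.57 on all 8 arrays.

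Rbpj encodes the DNA-binding protein through which all Notch receptors act (chr5:53555779-53657445, GRCm38). On slide 1 it read 1.38 and 1.62 in Lin- BM cells and -0.96 and -1.25 at 1 month, well above background on all 4 arrays and with no overlap. The signal was 6.09-fold lower at 1 month, with a log2 change of -2.61 ± 0.28 (SE) and an adjusted p of 0.00217 in limma. Of the members called on slide 1, it alone was also called by the methods' t-test after Benjamini-Hochberg adjustment, and its call was kept without each of the 4 arrays (-2.75 to -2.46).

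On slide 2 the bright Rbpj probe, at chr5:54048503-54048562 in mm9, read 0.92 and 0.52 in primary hepatocytes and 0.30 and 0.49 at 5 months. The difference of -0.32 (95% interval -0.98 to 0.34, adjusted p = 0.621 in limma) was not called. The second probe was dimmer, between -3.88 and -3.03, and was well above background on 1 array of each population.

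Hes1, the repressor through which Notch keeps progenitors undifferentiated (chr16:30065357-30067796, GRCm38), read -3.86 and -6.10 in Lin- BM cells, of which the first was well above background. At 1 month it read -2.16 and -3.15, both well above background and, on this scale, both higher than L3 and L4. Before scaling, the scanner signal was 16.7 on B1 and 10 on B2, against 13.2 on L3 and 2.56 on L4. B2 thus lay below L3 there. The log2 change of 2.33 ± 0.82 (SE, 95% interval 0.21 to 4.44) missed the threshold with an adjusted p of 0.0629 in limma. The spread between L3 and L4 was nearly as large as the difference, and without L3 the gene was called (3.44, adjusted p = 0.0193). With normexp background correction it was called as well (0.92, adjusted p = 0.00921). On slide 2, with another probe, Hes1 read -1.31 and -3.07 in primary hepatocytes and -2.23 and -2.47 at 5 months, and the difference of -0.16 (95% interval -1.85 to 1.54, adjusted p = 0.937) turned to 0.73 without H2.

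Hey1, a target gene of Notch in vessels and heart (chr3:8663359-8667038, GRCm38), read -1.39 and -1.63 in Lin- BM cells and -4.13 and -3.37 at 1 month, where it was not well above background. The 1-month signal was at least 3.49-fold lower, with a log2 change of -2.24 ± 0.36 (SE) and an adjusted p of 0.0066 in limma. With normexp background correction the log2 change was -0.20 and the adjusted p 0.185. On slide 2 it read -3.83 and -3.80 in primary hepatocytes, the first well above background, and -4.29 and -4.67 at 5 months. On the shared-probe scale primary hepatocytes were 5.85-fold lower than Lin- BM cells (adjusted p = 6.44e-04 in limma, 1 of 2 arrays well above background) and 5-month cells at least 6.16-fold lower (2.55e-04). Hes1 and Hey1, both targets, thus read in opposite directions between 1 month and Lin- BM cells, and only the fall of Hey1 passed the test.

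**Figure D3:**
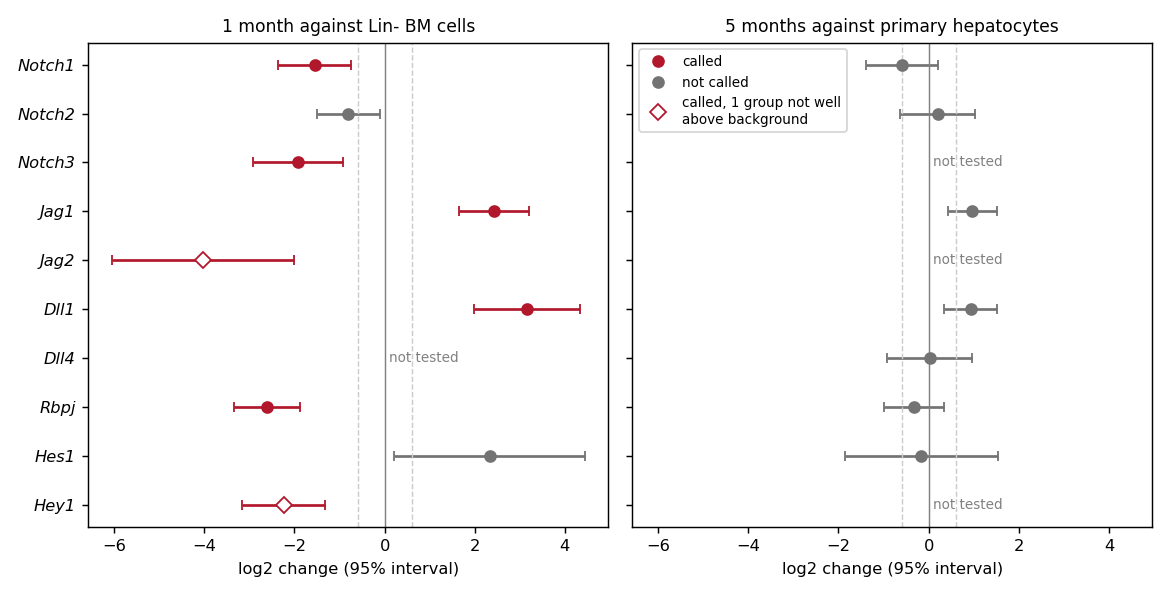
Log2 changes of the members with 95% intervals from limma within each slide, 1 month against Lin- BM cells on the left and 5 months against primary hepatocytes on the right, with dashed lines at the limit of 0.6. On the left 7 of 9 genes are called (red, with open diamonds where 1 group was not well above background), and on the right 0 of 7, with Jag1 and Dll1 the furthest from 0.

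Set against Lin- BM cells on the shared probes, all 7 members tested were called in primary hepatocytes, 3 higher and 4 lower, where 67.4% of 9212 genes were called, 29.4% higher and 38.1% lower. In 5-month cells 6 of 7 were called, 3 higher and 3 lower, where 67.1% of all genes were, 29.4% higher and 37.8% lower. Jag1, Dll1 and Dll4 were higher and Notch3, Jag2 and Hey1 lower in both, and Notch2 was called in primary hepatocytes only, a difference between the populations that was not called (0.24, adjusted p = 0.766 in the fit of all 4 populations). Both comparisons use the same Lin- BM cell arrays. The median log2 change of the 7 members was -0.89 in primary hepatocytes and -0.65 in 5-month cells, against -0.29 and -0.30 over all genes tested.

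Between the hepatocyte populations fewer members were called. Notch3 was the 1 member called between 1-month cells and primary hepatocytes. Between 5 and 1 months Jag1 was called higher and Notch3 lower, at least 1.96-fold (adjusted p = 0.0462 in limma), a call that was lost without B1 (-2.19, adjusted p = 0.131), B2 (-2.11, 0.162) or G3 (-1.29, 0.148). With quantile normalization Notch3 was not called against primary hepatocytes (2.44, adjusted p = 0.069) or between 5 and 1 months (-1.70, 0.149).

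Of 73 other genes of the pathway, all with a probe on slide 1, 63 were tested between 1-month cells and Lin- BM cells, and 8 were called higher and 26 lower. Over all genes tested 55.3% were called, 28.8% higher and 26.5% lower, so the share of pathway genes called was near that of all genes. Their median log2 change was -0.96, against 0.07 over all genes. The counts by list given below for 1 month against Lin- BM cells are to be set against the same shares of all genes. Within slide 2, 0 of the 59 tested were called between 5-month cells and primary hepatocytes, with a median of 0.00 against 0.04.

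Among the other receptors and ligands of slide 1, both genes tested rose at 1 month: Notch4, the endothelial receptor, by 1.33 (adjusted p = 0.012 in limma) and Dlk2, a Delta-like protein, by 1.13 (0.0267). Of the proteases that cut the receptor, 3 of 9 rose and 1 fell. Psen2, a catalytic subunit of gamma-secretase, read 8.30 at 1 month and 4.87 in Lin- BM cells, a log2 change of 3.43 ± 0.33 (SE, adjusted p = 0.00156), and Furin, which cuts the receptor on its way to the surface, rose by 2.47 (0.00309). Adam10, which sheds the extracellular part, was at least 2.77-fold lower (0.00679). That fall rests on a slide 1 probe that read -1.86 in Lin- BM cells and -3.94 at 1 month. Another Adam10 probe, on slide 2, read 3.31 in primary hepatocytes and 3.74 at 5 months. These probes differ, so the Adam10 levels were not compared between slides.

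Of the genes that sugar-modify the receptor, 3 of 5 fell and 0 rose, with a median of -1.11, and Pofut1 (-0.96, adjusted p = 0.065 in limma) and Rfng (-1.05, 0.0905) were not called. Mfng fell by 4.70 on the log2 scale (adjusted p = 0.00114 in limma) and Lfng was at least 9.28-fold lower (0.00419), and both encode Fringe enzymes that change which ligand a receptor answers to. Among genes for ligand endocytosis and receptor trafficking 6 of 12 fell and 1 rose. Dtx1, a Deltex ubiquitin ligase, was at least 49.9-fold lower (8.75e-04), and Dtx3 at least 11.9-fold (5.33e-04). Neurl1b, an E3 ligase for the ligands, was at least 19.1-fold lower (0.0018), while Numb, which inhibits the receptor, rose by 2.09 (0.00692). The slide 1 probe of Neurl1b read -4.20 at 1 month. Another Neurl1b probe, on slide 2, read 7.56 in primary hepatocytes and 7.31 at 5 months. Which probe follows the RNA of Neurl1b was not tested.

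In the nucleus, 8 of 14 corepressor genes fell at 1 month and 0 rose, where 26.5% of all genes were called lower and 28.8% higher. The median of the 14 was -1.39. Among the 8 were Ctbp2 (log2 change -3.01, adjusted p = 0.00239 in limma), Tle3 (-2.87, 0.00222) and L3mbtl3 (-2.79, 0.00596). Tle3 read -1.80 at 1 month, while another Tle3 probe, on slide 2, read 2.61 in primary hepatocytes and 3.70 at 5 months. Of 10 coactivator and turnover genes 4 fell and 1 rose, the acetyltransferase Kat2b, by 2.30 (0.00393). The Mastermind coactivator Maml1 had a log2 change of -0.82 (0.0737), which was not called. Cir1 is among the 8 (-1.05, 0.0278) on the probe taken for it in the fit of slide 1. A probe shared by both slides, named Cir1 through slide 2, read 1.18 at 1 month and -4.08 in Lin- BM cells, in the opposite direction. The direction of Cir1 at 1 month thus depends on the probe. L3mbtl3, Ctbp2, Tle3 and Kat2b also act outside the Notch pathway.

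Of the other Hes, Hey and Nrarp targets, 2 of 5 fell and 0 rose. Hes5 read 0.07 in Lin- BM cells and -5.53 at 1 month, where it was not well above background, and was at least 10.6-fold lower (adjusted p = 2.73e-04 in limma). Nrarp, a feedback inhibitor that Notch itself turns on, was at least 4.67-fold lower (0.00261). On the shared probes Hes5 was also at least 22.4-fold lower in primary hepatocytes (1.91e-04) and at least 18.4-fold lower at 5 months (3.32e-04) than in Lin- BM cells. Of 6 further textbook targets, Gata3 (-4.42, 0.00131) and Myc (-3.40, 0.0127) fell on the log2 scale, and Sox9, a gene of bile duct cells, was at least 4.21-fold higher at 1 month (0.0191). Of the 9 of 10 lymphocyte markers tested, 5 were called lower and 0 higher at 1 month, where 26.5% of all genes were called lower. The 10 leukocyte and progenitor markers had 8 called lower and 0 higher. The lymphocyte markers summed to 22.7 to 79 in Lin- BM cells and 1.14 to 1.56 at 1 month. On slide 2 they summed to 59.2 to 61.7 in primary hepatocytes and 74.5 to 98.5 at 5 months. Cd4 read 5.81 and 5.85 in primary hepatocytes and 6.14 and 6.56 at 5 months. The part of these cells in the fall of the pathway genes was not tested.

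Across slides 34 of the 73 genes could be tested on shared probes. In primary hepatocytes 7 were higher and 15 lower than in Lin- BM cells, where 67.4% of all genes were called, with a median log2 change of -0.76 against -0.29 over all genes, and at 5 months 6 were higher and 13 lower, where 67.1% of all genes were called, with a median of -0.49 against -0.30. Neither share of pathway genes called was above that of all genes. Numb was higher in both, by 2.03 (adjusted p = 0.00125 in limma) and 2.07 (0.00118). The repressor gene Hes6 was higher in both as well, by 1.39 (0.00149) in primary hepatocytes and 1.33 (0.00191) at 5 months. Dtx1 was lower in both (-5.17, 7.59e-04, and -5.13, 8.06e-04). Myc had a log2 change of -4.75 in primary hepatocytes (3.61e-04) and -2.82 at 5 months (0.00391). Lfng had a log2 change of -4.66 in primary hepatocytes (0.00295) and was at least 16.2-fold lower at 5 months (0.00285). Sox9 was at least 4.83-fold higher (0.0407) at 5 months.

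Between the hepatocyte populations 3 of the 34 were higher and 2 lower at 1 month than in primary hepatocytes, and 2 were higher and 6 lower at 5 months than at 1 month. Of all genes 16.7% and 17.1% were called in these comparisons. Hes2, another repressor of the Hes family, read -1.86 at 1 month, -4.29 in primary hepatocytes, -4.00 at 5 months and -4.78 in Lin- BM cells on its shared probe, and was called in both (2.42, adjusted p = 0.00343 in limma, and -2.14, 0.00453). Its brightest slide 1 probe was not called between 1 month and Lin- BM cells (0.16, 0.698), so that the counts of targets within slide 1 rest on a probe that read otherwise. Dlk2 was higher at 1 month than in primary hepatocytes by 2.07 (0.0101). The Fringe gene Rfng was at least 1.6-fold lower at 1 month than in primary hepatocytes (0.0158) and at least 1.44-fold higher at 5 months (0.0206). Cir1, a corepressor that binds RBPJ, had log2 changes of 2.0 (0.0238) and 2.72 (0.00703) against Lin- BM cells in primary hepatocytes and at 5 months, 3.26 (0.0172) at 1 month against primary hepatocytes and -2.54 (0.0366) from 1 to 5 months, all on the shared probe, which ran against another Cir1 probe on slide 1. Ncor1, a corepressor, was lower at 1 month than in primary hepatocytes (-1.54, 0.0196), and Cdk8, a kinase of the Mediator complex, was higher at 5 months than at 1 month (1.49, 0.0415).

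**Figure D4:**
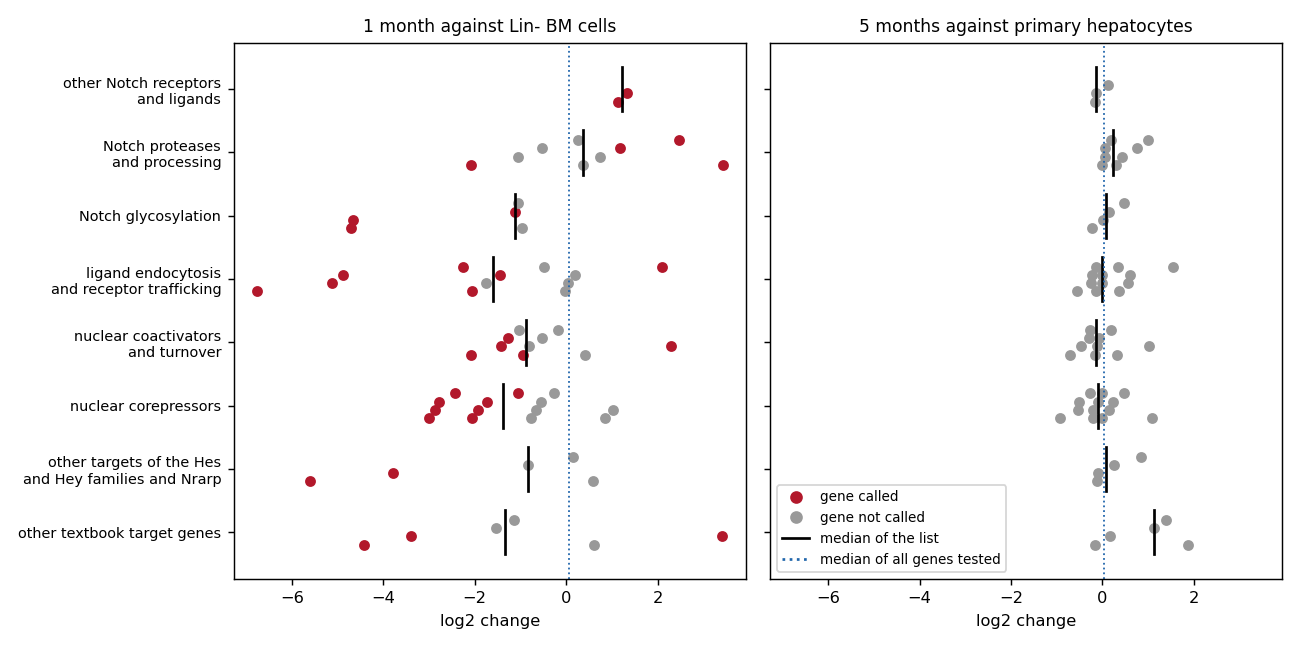
Log2 changes of the other genes of the pathway by role, 1 month against Lin- BM cells on the left and 5 months against primary hepatocytes on the right, with 1 point for each gene tested (red where called), a black bar at the median of each list and a dotted line at the median of all genes tested. On the left 34 of 63 genes are called and the medians of 6 of 8 lists lie below the dotted line, and on the right 0 of 59 are called.

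The promoter of Hes5 is shown because it was the target with the lowest p in the comparison of 1-month cells with Lin- BM cells. It covers the 250 bases before the start of the gene, chr4:154960673-154960922 on the plus strand of GRCm38.p6, from RefSeq, with matches to GTGGGAA, the preferred letters of RBPJ, on either strand in capitals:
Hes5 promoter: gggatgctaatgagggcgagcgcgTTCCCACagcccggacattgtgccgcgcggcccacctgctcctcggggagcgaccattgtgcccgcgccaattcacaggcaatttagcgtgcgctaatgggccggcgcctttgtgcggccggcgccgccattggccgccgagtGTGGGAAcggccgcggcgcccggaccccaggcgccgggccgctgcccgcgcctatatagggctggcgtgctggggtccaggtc
The 2 matches begin 226 and 83 bases before the start and do not overlap. Of all 32851 RefSeq promoter windows of 300 bases, 6.38% held at least 1 match. Of the 10 windows of the 8 members with an entry, 0 held one. The windows of Nrarp and Dtx1, which also fell at 1 month, and those of Hes6 held 0 matches as well. Whether the matches have a part in the fall of Hes5 was not tested. Entries for Hes1 and Hey1 were not used here.

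Over the 8 arrays, Notch2 and Dll1 were the members well above background throughout, and their patterns on the shared probes were set against those of 6308 other genes with all 8 arrays above background. Notch2 was most like Bcl7c (Pearson's r = 0.986 over 8 arrays), Efcab14 (0.979) and Pou2f1 (0.968), and Dll1 was most like Ctns (0.991), Rnasek (0.982) and Galk1 (0.979). The 8 arrays share slides in fours and populations in pairs, so these values describe the likeness only.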

How the data were processed

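Per the file headers, the authors scanned the arrays with Agilent Feature Extraction 11.5.1.1, and the deposited intensity is its background-subtracted processed signal. The deposited value tables hold log2 values, which the authors shifted to the 75th percentile in GeneSpring, and which here differed from the log2 processed signal by a constant within 0.02 for nearly all spots. Probe positions are in mm9 for the design of slide 2, and positions of slide 1 probes are not given in the sources used here.

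The log2 processed signal minus the 75th percentile of the array was tested with limma 3.58.1 in R 4.3.3 and Benjamini-Hochberg adjustment over all genes. Control spots and outlier spots were left out, and no spot was saturated. Each gene took its brightest probe among those that passed the scanner software's detection flag on both arrays of 1 or more populations. Within a slide the 4 arrays and all probes were fitted, and across slides all 8 arrays on the shared probes. Genes were named through RefSeq where the accession or symbol matched (28128 and 4988 probes of slide 1, 27503 and 3554 of slide 2), then by synonym (1406 and 404), and otherwise as in the files. The fits were tested on simulated data.

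All 10 members are named with every probe. From the lists of other pathway genes, the called genes of largest change were named, up to 6 each way within a slide and up to 3 across slides, and others named beside them (Dlk2, Adam10, Nrarp, Ctbp2, Tle3, L3mbtl3, Maml1, Gata3, Myc at 1 month) were chosen after their values were seen. The members and lists were chosen with earlier results of these data known. The alternatives tried were quantile normalization, background correction by normexp (offset 50), other filters and probe rules, the authors' values, the methods' t-test and each array left out. With 2 arrays per population, their number limits the precision.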

Additional observations from a re-analysis of the deposited data

Results flagged for a closer look

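By limma's test on the shared probes, Notch3 and Jag1 differed between 5 months and 1 month. Setting both populations against the same Lin- BM cells gives this same contrast, so it is not a further result. Both calls were lost without some single arrays, as given above. Notch3 was at least 1.96-fold lower at 5 months, where neither array was well above background, so the fitted log2 difference of -2.15 (adjusted p = 0.0462) is not a measured size. For Jag1 it was 1.42 (adjusted p = 0.0108), with the higher value on both 5-month arrays. Both populations lay on different slides, so slide and time cannot be told apart.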

How the results depend on the processing

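No paired analysis was possible because the populations compared share fewer than 2 replicate numbers in the labels. Of the members' log2 changes, 338 kept direction and side of the threshold under the settings that keep every array, 10 reversed, 40 lost and 18 gained the call; without single arrays these were 148, 8, 18 and 2. Calls of dim probes (Notch3, Jag2, Hey1) were those that normexp background correction ended at 1 month. With 2 arrays per population, leaving out 1 leaves a lone array that is assumed to vary like the others.

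The methods' t-test with Benjamini-Hochberg adjustment gave 1 member and 4554 genes for 1 month against Lin- BM cells, 0 genes for 5 months against primary hepatocytes, 4 members and 2515 genes for primary hepatocytes against Lin- BM cells, 3335 genes for 5 months against Lin- BM cells, 0 members and 2 genes for 1 month against primary hepatocytes, and 0 members and 14 genes for 5 months against 1 month. Unadjusted, it called 2 members and 1364 genes for 5 months against primary hepatocytes and 4 members for primary hepatocytes against Lin- BM cells.

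Probes well above background on all arrays of the fit gave 47 genes for 5 months against primary hepatocytes, 2 members and 4125 genes for primary hepatocytes against Lin- BM cells, 1 member for 5 months against Lin- BM cells, 901 genes for 1 month against primary hepatocytes and 0 members for 5 months against 1 month. Keeping all dim probes gave 26463 genes for 1 month against Lin- BM cells, 38 for 5 months against primary hepatocytes, and 2 members and 4040 genes for 1 month against primary hepatocytes. Normexp gave 2 members and 2411 genes for 1 month against primary hepatocytes and 2685 genes for 5 months against 1 month. Quantile normalization gave 0 members and 1 member in these 2 comparisons, and the authors' values 1 member in the latter. The shared-probe fit called 5778 genes for 1 month against Lin- BM cells, a fit of only the populations compared called 760 for 1 month against primary hepatocytes, and every probe tested singly, an alternative chosen after seeing the data, gave 190 for 5 months against primary hepatocytes.

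Leaving out single arrays gave 4 to 8 members and 9778 to 12630 genes for 1 month against Lin- BM cells, 0 to 1 members and 534 to 1003 genes for 1 month against primary hepatocytes, 0 to 1 members and 312 to 752 genes for 5 months against 1 month, and 0 to 1624 genes for 5 months against primary hepatocytes, where leaving out G1 or G3 gave 0 and leaving out H2 or H4 gave 1532 and 1624.

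The share of calls that were higher at 1 month than in Lin- BM cells was 52.1%, and 62.8% with normexp and 71.9% with no filter. Against primary hepatocytes it was 69.4%, and 53% with quantile normalization, 49.9% with the percentile over all probes and 84.8% with no filter. Between 5 months and 1 month it was 34.1%, and 46.9% with quantile normalization and 52.7% with the percentile over all probes. Normexp moved the median log2 change of all genes from 0.07 to 0.36 for 1 month against Lin- BM cells and from -0.29 to 0.07 for primary hepatocytes against Lin- BM cells.

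Directions that reversed were all of values not called. For 1 month against primary hepatocytes they were Dll4 (0.32) and Jag1 (0.17) with normexp, Hey1 (-0.46) and Jag2 (-0.97) with quantile normalization, Notch2 with the percentile over all probes (-0.16), with the authors' values (-0.17), and over single arrays left out (-0.22 without H4, 0.00 without B1, up to 0.43), and Hey1 (-0.07 without B2, up to 0.74). For 5 months against 1 month they were Dll4 with normexp (-0.29), Jag2 with quantile normalization (0.03) and Dll1 (-0.94 without B2, 0.18 without B1). For 5 months against primary hepatocytes they were Dll4 with normexp (0.00), with quantile normalization (-0.04), without G3 (-0.21) and without H4 (-0.33, against 0.39 without H2), Notch2 (-0.14 without H4, 0.54 without H2) and Hes1 (-1.04 without H4, 0.73 without H2). The cause was not tested for any of these changes.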
